A study of Mus musculus with 6 samples.

Results

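Splicing factors and heterogeneous nuclear ribonucleoproteins (hnRNPs) were examined in bone marrow monocytes (BMDM) and brainstem microglia (BSM). The genes were every row of the deposited gene table whose symbol begins with Hnrnp or Hnrp, Sf3a or Sf3b, Snrp, Sfrs or Srsf. This rule uses symbols and no measured value, although it was set with earlier results of these data known. It gave 59 of 35237 genes. All 59 were also present in a second table made from the same libraries with ALEXA-Seq, in which the same symbols matched 61 of 36536 genes. The additional pair there was Hnrnpa1l2 and the pseudogene Snrp1c-ps2, the latter listed at 0 in all 6 libraries.

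The RNA-Seq data came from 3 BMDM and 3 BSM libraries of untreated C57BL/6 mice aged 6 weeks, each made from cells pooled from 10 mice. BMDM were sorted by FACS from bone marrow as CD11b+, Ly6G-, CD115+ and CD45high, and BSM from brainstem as CD11b+, Ly6G-, CD115low and CD45low. Replicate 1 of each cell type is labelled male and replicates 2 and 3 female, and neither group carries a transgene or deletion. Because animals were pooled and the RNA was amplified, the spread between libraries is that between pools, and the marrow cells are monocytes that had not entered the brain.

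Most protein-coding transcripts are spliced by small nuclear ribonucleoproteins (snRNPs), each of which carries a ring of Sm proteins around its RNA. The U1 particle reads the start of an intron and the U2 particle, with the SF3A and SF3B complexes, reads the branch site. SR proteins bind exons and generally favour the use of nearby splice sites, whereas hnRNPs coat the nascent transcript, often oppose splice site use and also act in export, stability and translation.

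By class the 59 genes comprised 7 core Sm proteins, 4 proteins of the U1 and U2 particles, 8 subunits of SF3A and SF3B, 11 SR proteins, 9 other genes with Sfrs symbols and 20 hnRNPs. The tables use older symbols for several, among them Sfrs1 to Sfrs7, Sfrs9 and Sfrs11 (now Srsf with the same number), Sfrs8 (Sfswap), Sfrs13a (Srsf10), Sfrs13b (Srsf12), Sfrs12 (Srek1), Sfrs14 (Sugp2), Sfrs15 (Scaf4), Sfrs18 (Pnisr) and Sfrs2ip (Scaf11). The older symbols are kept here.

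The start regions of 4 genes are shown because members that differed between the cell types on the deposited values and members that did not share a sequence feature there. Promoters were taken from RefSeq (GRCm38.p6) as 250 bases before to 50 bases after the transcription start, and 51 members had 68 such windows, some of which overlap. On the deposited values Snrpg and Hnrnpd were among the members with the largest differences described below, and Sfrs5 and Sfrs12 among those not called. Under each of the other scalings between libraries, also described below, Sfrs5 and Sfrs12 were called higher in BSM. Hnrnpd was not called with all libraries scaled to the same sum. Capitals mark matches, on either strand, to the 5 motifs that are spelled out after the sequences.
Snrpg, chr6:86371290-86371589, plus strand: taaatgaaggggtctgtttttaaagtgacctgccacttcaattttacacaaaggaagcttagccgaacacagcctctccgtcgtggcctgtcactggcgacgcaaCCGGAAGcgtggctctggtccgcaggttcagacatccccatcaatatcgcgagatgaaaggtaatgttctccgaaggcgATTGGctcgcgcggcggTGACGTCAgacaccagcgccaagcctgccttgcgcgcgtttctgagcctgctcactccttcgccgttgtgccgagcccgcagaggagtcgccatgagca
Hnrnpd, chr5:99978889-99979188, minus strand: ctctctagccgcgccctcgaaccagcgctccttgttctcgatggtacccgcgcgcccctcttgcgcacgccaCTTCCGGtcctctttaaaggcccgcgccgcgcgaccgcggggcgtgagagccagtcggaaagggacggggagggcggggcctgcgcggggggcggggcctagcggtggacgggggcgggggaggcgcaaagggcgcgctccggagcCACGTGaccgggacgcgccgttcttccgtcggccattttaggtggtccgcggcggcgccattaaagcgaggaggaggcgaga
Sfrs5, chr12:80945249-80945548, plus strand: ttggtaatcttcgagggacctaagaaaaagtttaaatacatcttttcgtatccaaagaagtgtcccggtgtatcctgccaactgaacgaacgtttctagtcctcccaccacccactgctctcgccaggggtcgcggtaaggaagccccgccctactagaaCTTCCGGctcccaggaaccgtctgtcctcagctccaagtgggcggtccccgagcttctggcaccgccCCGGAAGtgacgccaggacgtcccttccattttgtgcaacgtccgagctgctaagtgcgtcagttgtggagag
Sfrs12, chr13:103774559-103774858, minus strand: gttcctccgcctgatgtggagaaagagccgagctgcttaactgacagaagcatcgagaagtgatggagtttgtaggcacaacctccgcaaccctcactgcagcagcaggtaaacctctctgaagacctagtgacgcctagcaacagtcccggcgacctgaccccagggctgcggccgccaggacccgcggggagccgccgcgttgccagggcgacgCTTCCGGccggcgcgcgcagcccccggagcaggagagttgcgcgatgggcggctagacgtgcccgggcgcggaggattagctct

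All 4 windows hold the ETS core CCGGAAG or its complement, and Sfrs5 holds it on both strands. Over all member windows the ETS core was found in 24 of 68 (35.3%), in 17 genes, against 8.86% of all 32851 promoters and 18.5% of the 5389 promoters of the expressed genes tested below. The 17 genes included Snrpg, Snrpb2, Snrpc, 5 subunits of SF3A and SF3B, Sfrs4, Sfrs5, Sfrs7, Sfrs11, Sfrs12, Hnrnpd and Hnrnpf. The windows were rich in CpG, with a median of 26 per window against 7 for all promoters and 22 for those of expressed genes. Each motif was counted on both strands. The CCAAT box was found in 42.6% of member windows, against 37.4% of all promoters and 37.7% of those of expressed genes. The E-box, spelled CACGTG, was found in 11.8%, against 7.15% and 10.3%. The TATA box, spelled TATAAA, was found in 10.3%, against 13.6% and 7.27%. The CRE, spelled TGACGTCA, was found in 2.94%, against 1.79% and 3.06%. A match is a description of the letters in the window, not of binding.

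Expression was measured as deposited FPKM, that is, sequenced fragments scaled to the length of the gene's exons and to the size of the library. Without read numbers the depth of a single value is unknown. The sums of FPKM over all genes were unequal, from 163198.7 to 194184.2 in BMDM and from 68287.8 to 75021.4 in BSM, and the choice of scaling between libraries therefore set the level against which each gene was read. Limma on log2(FPKM + 1) was applied to the 6364 genes that reached 3 FPKM in 1 or more of the libraries, and an adjusted p under 0.05 was called. Differences are BMDM minus BSM on that scale, which understates the change of low genes. Over all 6364 genes their median was 0.81 on the deposited values, 0.02 after quantile normalization, 0.14 after upper quartile scaling and -0.23 with all libraries scaled to the same sum.

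The marker lists of the labelled cells were, in sum, highest in those cells. Summed over 10 microglia genes the FPKM was 812 to 905 in BSM and 17.6 to 19.7 in BMDM, and over 8 classical monocyte genes 526 to 577 in BMDM and 5.07 to 8.01 in BSM. Of these 8, 6 were called higher in BMDM, and Cd14 went the other way, at 0.352, 0.424 and 1.15 FPKM in BMDM against 6.43, 4.63 and 4.35 in BSM (-1.92, limma adjusted p = 0.00125). Lists of neuron, endothelial, lymphocyte and oligodendrocyte genes stayed under 13 in every library and astrocyte genes reached 9.52 in BSM replicate 1. Nearly all of that sum was Slc1a3 (9.51), while Gfap, Aqp4, Aldh1l1 and Gja1 were listed at 0 in that library. Granulocyte genes summed to 65.8, 544 and 110 in the BMDM libraries, highest in replicate 2, and to at most 0.094 in BSM, where 8 of the 11 were listed at 0 throughout. Erythroid genes summed to 27.9, 119 and 19.0 in BMDM and to at most 0.33 in BSM. Genes of dividing cells summed to 373, 553 and 510 in BMDM and to 11.4, 22.1 and 19.9 in BSM, and all 15 that were tested were higher in BMDM. Their part in the differences below was not tested. In sorted pools fewer cells expressing a gene and less RNA per cell cannot be told apart.

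**Figure D1:**
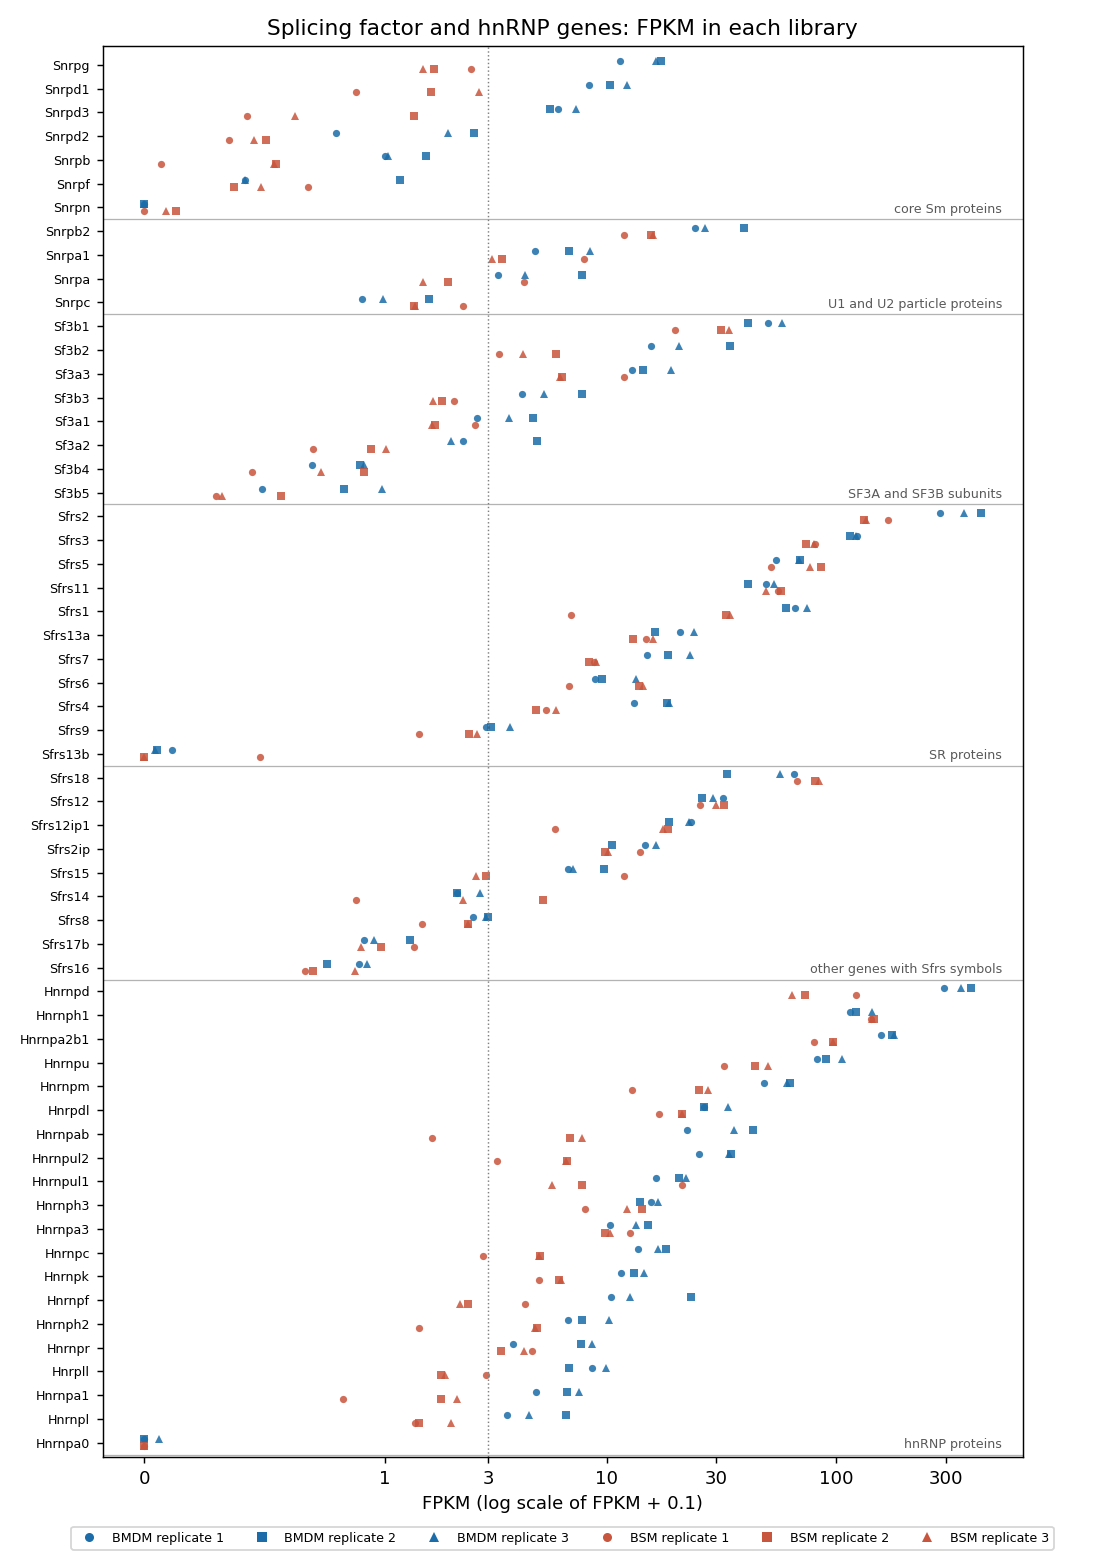
FPKM of the 59 genes in each of the 6 libraries, by class and in order of mean level, on a log axis of FPKM + 0.1 (BMDM blue, BSM red, and the dotted line at the minimum of 3 FPKM). The 5 core Sm genes Snrpg, Snrpd1, Snrpd3, Snrpd2 and Snrpb lie higher in all BMDM libraries than in any BSM library, whereas Hnrnph1, Sfrs5, Sfrs11 and Sfrs12 overlap.

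The members together took 1810, 2160 and 2166 FPKM in the BMDM libraries and 1076, 1134 and 1125 in the BSM libraries. As a share of all FPKM this was 1.11% to 1.25% in BMDM and 1.51% to 1.65% in BSM, so that the direction of the summed difference depended on the scaling. By FPKM the most abundant members were alike in both cell types, in that Sfrs2, Hnrnpd, Hnrnpa2b1, Hnrnph1 and Sfrs3 held the first 5 places in each. Sfrs2 led both, at 354 ± 71.2 FPKM in BMDM and 145 ± 20.4 in BSM (mean ± SD, n = 3). Hnrnpd was the next in BMDM and only the fourth in BSM, where Hnrnph1 stood beside Sfrs2. In ALEXA-Seq the order was another. Hnrnpd led both cell types there, followed by Sfrs2, Snrpg was the fourth in BMDM, and Hnrnph1 was outside the first 5 in both.

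Of the 59 members 47 reached the minimum and were tested, and 27 (57.4%) were differentially expressed, all of them higher in BMDM, against a background of 54.5% of all 6364 genes called and 45.3% called higher in BMDM. None of the 47 was called higher in BSM by limma, where the background was 9.22%, and none passed an unadjusted p of 0.05 in that direction (1 did in the ALEXA-Seq table). The median difference of the tested members was 0.90, close to the 0.81 of all genes. In all 27 the 3 BMDM libraries lay above the 3 BSM libraries. Over the tested members the groups did not overlap in 33 of 47 (background 66.8%), with BMDM above in 32 (68.1%, background 55.2%) and BSM above in 1 (2.13%, background 11.6%). Over all 59 members BMDM was above in 35 and BSM in 1. No share over all genes, tested or not, was computed for this count, so nothing is read from it. Of the 47 members, 10 reached 3 FPKM in BMDM alone, 8 of which were called (80.0%, against 74.8% of all such genes), so that their calls follow in part from the minimum. Of the 36 that reached it in both groups 19 (52.8%) were called higher in BMDM, against 37.4% of all such genes.

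Relative to the median gene the members fell on both sides. After quantile normalization limma called 17 of the 47 (background 40.9%), with 12 higher in BMDM (background 21.7%) and 5 higher in BSM (background 19.3%). Upper quartile scaling gave 16 (background 38.2%), with 11 and 5 in the 2 directions (backgrounds 21.7% and 16.5%). Scaling to the same sum gave 17 (background 40.1%), with 5 and 12 (backgrounds 15.2% and 24.9%). The 5 members called higher in BMDM under all 4 scalings were Snrpg, Snrpd1, Snrpd3, Sf3b2 and Hnrnpul2. Of these Snrpg, Snrpd1 and Snrpd3 had reached the minimum in BMDM alone, so that their calls follow in part from it. The backgrounds given so far are also those of the counts by class below.

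**Figure D2:**
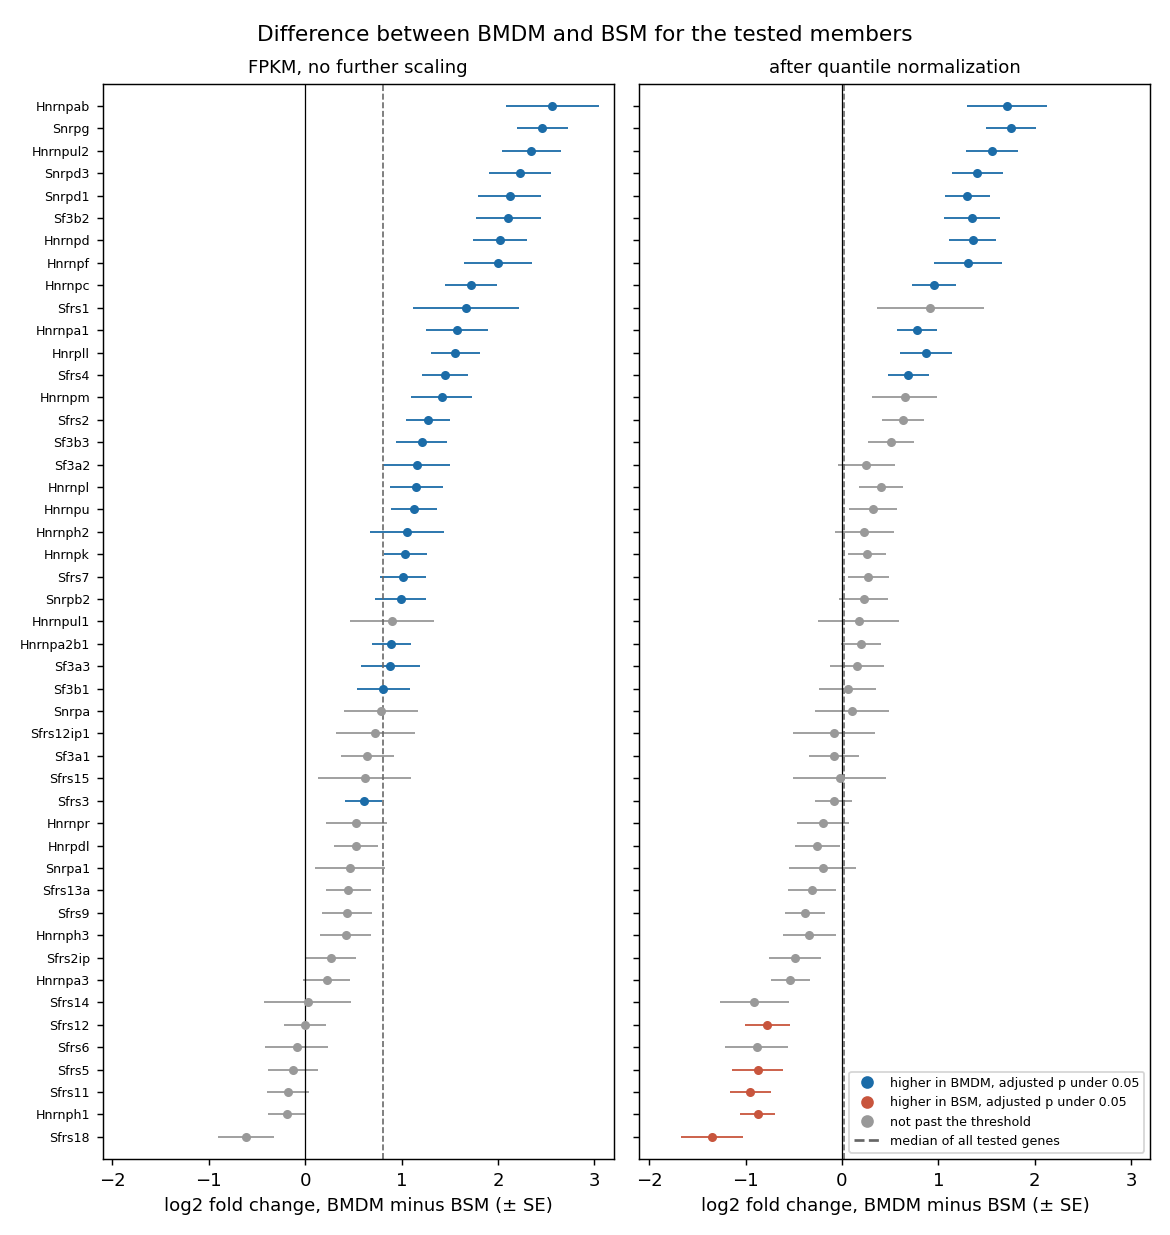
Log2 difference (BMDM minus BSM, ± SE) of the 47 tested members without further scaling (left) and after quantile normalization (right), with the median of all 6364 genes as a dashed line. On the left 27 are called and all are higher in BMDM, while on the right 12 are higher in BMDM and 5, at the foot of the plot, higher in BSM.

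The core Sm proteins form the ring on which U1, U2, U4 and U5 snRNPs are built, and they showed the widest separation. The 7 genes summed to 27.7, 38.5 and 39.2 FPKM in BMDM and to 3.97, 5.42 and 5.30 in BSM. They do not include Snrpe, which the rule did not find, and so are not the whole ring. Snrpg, which encodes SmG (chromosome 6, 86321546 to 86328896, mm9 as the submitters' processing notes list it), was at 11.4, 17.3 and 16.4 FPKM in BMDM and 2.51, 1.70 and 1.52 in BSM. The groups did not overlap, the ratio of means was 7.88, and the difference was 2.46 ± 0.26 (SE, limma adjusted p = 0.000219). Snrpd3 was at 6.08, 5.61 and 7.30 in BMDM and 0.180, 1.38 and 0.348 in BSM (2.23 ± 0.32, adjusted p = 0.00096). Snrpd1 was at 8.40, 10.3 and 12.3 against 0.726, 1.65 and 2.73 (2.12 ± 0.33, adjusted p = 0.0013). All 3 stayed called under quantile, upper quartile and same-sum scaling, but each reached the minimum through BMDM alone.

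The other 4 core Sm genes stayed under 3 FPKM in all libraries and were not tested. Snrpd2 was at 0.574, 2.59 and 1.97 in BMDM and 0.132, 0.235 and 0.199 in BSM, and Snrpb, the gene of SmB, at 1.00, 1.57 and 1.04 against 0.0176, 0.272 and 0.264, both without overlap. Snrpf overlapped, at 0.173, 1.18 and 0.174 against 0.414, 0.145 and 0.220, and all of its transcript is matched by another gene at 95% identity or more, so its value is uncertain. Snrpn, the SmB-like gene of neurons, was listed at 0 in all BMDM libraries and in BSM replicate 1, and at 0.0374 and 0.0238 in the others. In ALEXA-Seq 5 core Sm genes were tested and all were higher in BMDM (background 37.1%). There Snrpf was at 77.6, 90.5 and 94.98 against 30.2, 11.4 and 25.6, with a difference of 2.02 (limma adjusted p = 0.00734).

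Of the proteins particular to the U1 and U2 particles, Snrpb2 (U2 B'') was at 24.3, 39.7 and 26.8 FPKM in BMDM and 11.9, 15.7 and 15.9 in BSM, a difference of 0.99 ± 0.27 (limma adjusted p = 0.0153) close to the median gene. Snrpa, the A protein of U1 and a close relative of Snrpb2, overlapped between the groups (3.31, 7.76 and 4.38 against 4.34, 1.97 and 1.51). Snrpa1 (U2 A') did as well, at 4.82, 6.82 and 8.48 against 7.95, 3.44 and 3.13. In both genes it was BSM replicate 1 that lay inside the BMDM range, and without it both were called higher in BMDM. Snrpc, the C protein of U1, was low, at 0.774, 1.62 and 0.981 against 2.31, 1.38 and 1.38. In ALEXA-Seq Snrpc was the reverse of the Sm genes, with BSM above BMDM in every library (13.2, 28.6 and 13.4 against 50.2, 29.9 and 29.9), although the difference of -1.005 missed the threshold (limma adjusted p = 0.104).

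Among the SF3A and SF3B subunits, which hold U2 at the branch site, 5 of 6 tested were higher in BMDM without further scaling (background 45.3%). After quantile, upper quartile and same-sum scaling 1, Sf3b2, was (backgrounds 21.7%, 21.7% and 15.2%). Of the 5 called without further scaling, 2 (Sf3a2 and Sf3b3) had reached the minimum in BMDM alone, so that their calls follow in part from it. The same sum turned the median of the 6 to -0.06. Sf3b2, the SF3B subunit that contacts the RNA beside the branch site, was at 15.6, 34.5 and 20.7 FPKM in BMDM and 3.36, 6.00 and 4.26 in BSM. It was 5.20 times higher by mean, a difference of 2.11 ± 0.34 (limma adjusted p = 0.00158). Sf3b1, the scaffold of the complex and the most abundant of its genes, differed far less, at 50.7, 41.2 and 57.9 against 19.9, 31.6 and 34.0 (0.81 ± 0.28, adjusted p = 0.038), and its call was lost without BMDM replicate 1 or 3 or BSM replicate 2. Sf3b3 (1.21), Sf3a2 (1.16) and Sf3a3 (0.88) were also called, and Sf3a1 was not (0.64 ± 0.28, adjusted p = 0.0785). The call of Sf3a3 was kept only without BSM replicate 1 when libraries were left out in turn. Over the 6 tested subunits the differences ran from 0.64 to 2.11. Sf3b4 and Sf3b5, the small subunits, stayed under 1 FPKM in all libraries.

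SR proteins carry RNA recognition motifs and a tail rich in arginine and serine. Of 10 tested, 5 (Sfrs1, Sfrs4, Sfrs2, Sfrs7 and Sfrs3) were higher in BMDM, against a background of 45.3%. The median of the 10, 0.53, lay under that of all genes. After quantile normalization it was -0.20, with Sfrs4 higher in BMDM and Sfrs5 and Sfrs11 higher in BSM. Sfrs2 was at 281, 423 and 357 FPKM in BMDM and 168, 131 and 134 in BSM (1.27 ± 0.23, limma adjusted p = 0.00284). Sfrs3, also called SRp20, was the tightest between replicates, at 123, 114 and 122 against 80.3, 73.8 and 80.1. Its difference of 0.61 ± 0.19 (adjusted p = 0.0283) turned to -0.084 after quantile normalization, to -0.24 with upper quartile scaling and, called higher in BSM, to -0.70 at the same sum. Its call was lost without BMDM replicate 1 or 3 or BSM replicate 2 or 3.

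Sfrs1, the gene of SF2/ASF, showed how far 1 library could weigh. It was at 66.1, 60.3 and 74.5 FPKM in BMDM, and at 33.3 and 34.3 in BSM replicates 2 and 3 but 6.96 in BSM replicate 1. The groups did not overlap with or without that library, and the difference was 1.67 ± 0.55 (limma adjusted p = 0.0332), which was 0.96 without BSM replicate 1 and was not called without any 1 of the BMDM libraries. Sfrs4 was at 13.1, 18.3 and 18.7 against 5.41, 4.91 and 6.00 (1.45 ± 0.24, adjusted p = 0.00179), whereas in ALEXA-Seq its groups overlapped. Of its transcript 64.1% is matched by another gene, so its value is uncertain. Sfrs7 was at 15.1, 18.5 and 23.1 against 8.79, 8.36 and 8.94 (1.02).

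Sfrs5, Sfrs11 and Sfrs6 had nearly equal FPKM in the cell types. Sfrs5 was at 54.4, 69.2 and 69.1 in BMDM and 51.8, 85.6 and 76.6 in BSM, Sfrs11 at 49.4, 41.3 and 53.7 against 55.9, 57.7 and 49.4, and Sfrs6 at 8.91, 9.53 and 13.4 against 6.86, 13.9 and 14.4. All 3 overlapped. Their differences of -0.13, -0.18 and -0.086 lay under the median gene by more than 0.81, and Sfrs5 (-0.88, adjusted p = 0.0308) and Sfrs11 (-0.95, adjusted p = 0.00984) were called higher in BSM by limma after quantile normalization. Sfrs13a was at 21.0, 16.3 and 24.1 FPKM in BMDM against 14.9, 13.1 and 15.9 in BSM (0.45 ± 0.24, adjusted p = 0.141), and Sfrs9 at 2.94, 3.09 and 3.76 against 1.46, 2.45 and 2.68 (0.43 ± 0.26, adjusted p = 0.188). In both the BMDM libraries all lay above the BSM libraries, and neither was called by limma. Sfrs13b was at 0.216 in BSM replicate 1 and under 0.04 elsewhere.

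The 9 other genes with Sfrs symbols encode proteins with SR-like domains or partners of SR proteins. None of the 6 tested was called without further scaling, and all 6 lay under the median of all genes under each of the 4 scalings. Sfrs18 was at 65.7, 33.4 and 56.8 FPKM in BMDM and 67.4, 80.7 and 84.3 in BSM, and it was the 1 member whose BSM libraries all lay above the BMDM libraries in FPKM. Its difference was -0.62 ± 0.29 (limma adjusted p = 0.106), and -1.35 after quantile normalization (adjusted p = 0.0134). Sfrs12, which encodes the splicing regulator SREK1, was equal, at 32.2, 25.9 and 29.2 against 25.5, 32.4 and 29.9, which became -0.78 after quantile normalization (adjusted p = 0.0317). Sfrs12ip1 and Sfrs2ip gave 0.73 and 0.27. Sfrs15 was decided by BSM replicate 1, the highest of the 6 libraries (11.9 against 2.65 to 9.73). Sfrs14 hung on 2 BSM libraries, at 0.729, 5.24 and 2.30 in BSM against 2.16, 2.17 and 2.75 in BMDM. Its difference ran from -0.44 without BSM replicate 1 to 0.49 without BSM replicate 2, the only library in which it reached the minimum. Sfrs8, Sfrs16 and Sfrs17b stayed under 3 FPKM.

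Of the hnRNPs 13 of 19 tested were higher in BMDM (background 45.3%), with a median of 1.13. Of the 13, 3 (Hnrnpa1, Hnrnpl and Hnrpll) had reached the minimum in BMDM alone, so that their calls follow in part from it. After quantile normalization the median was 0.33 with 7 higher in BMDM and 1 in BSM (backgrounds 21.7% and 19.3%). At the same sum it was -0.03 with 1 and 4 (backgrounds 15.2% and 24.9%). Hnrnpab, a relative of Hnrnpd that binds RNA and single-stranded DNA, was at 22.5, 43.3 and 35.8 FPKM in BMDM and 1.67, 6.92 and 7.76 in BSM (2.56 ± 0.48, limma adjusted p = 0.00333). Hnrnpul2, a scaffold-attachment factor related to Hnrnpu, was at 25.4, 34.8 and 34.2 against 3.29, 6.72 and 6.65 (2.35 ± 0.30, adjusted p = 0.000564). Both were over 5 times higher by mean and did not overlap.

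Hnrnpd (AUF1) binds AU-rich elements and promotes decay of many cytokine and cell-cycle transcripts. It was at 294, 383 and 348 FPKM in BMDM and 121, 73.2 and 64.3 in BSM, a ratio of 3.96 and a difference of 2.02 ± 0.28 (limma adjusted p = 0.000801). This was the member with the largest gap in FPKM, 342 ± 44.7 against 86.3 ± 30.7 (SD, n = 3). Hnrnpf, which binds G-rich sequences, was at 10.4, 23.4 and 12.6 against 4.37, 2.44 and 2.23 (2.00 ± 0.35, adjusted p = 0.0025), but 74.4% of its transcript is matched by other genes.

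Hnrnpc (1.72), Hnrnpa1 (1.57), Hnrpll (1.56), Hnrnpm (1.42), Hnrnpl (1.15), Hnrnpu (1.13), Hnrnph2 (1.06), Hnrnpk (1.04) and Hnrnpa2b1 (0.89) were the other called hnRNPs. Hnrnpc, whose tetramers package nascent RNA, was at 13.7, 18.2 and 16.8 FPKM in BMDM against 2.82, 5.08 and 5.03 in BSM. Hnrnpa1, a shuttling repressor of exon use, was at 4.87, 6.69 and 7.56 against 0.628, 1.84 and 2.17 (1.57 ± 0.32, limma adjusted p = 0.00482). Hnrnpu, a scaffold-attachment factor, was at 82.8, 90.0 and 106 against 32.6, 44.2 and 50.3 (1.13 ± 0.24, limma adjusted p = 0.006). These 3 did not overlap. Hnrpll, known for exon skipping of Ptprc (CD45) in activated lymphocytes, was at 8.60, 6.86 and 9.92 against 2.93, 1.83 and 1.91, and its relative Hnrnpl at 3.64, 6.59 and 4.54 against 1.39, 1.45 and 2.04. CD45 was one of the markers on which the cells were sorted. Hnrnpa2b1 was at 156, 175 and 177 against 79.8, 96.8 and 96.2, a difference of 0.89 ± 0.20 (limma adjusted p = 0.00735) that was close to the median gene and not called after quantile normalization. Hnrnph2, at 6.73, 7.79 and 10.2 against 1.45, 4.93 and 4.84, was called by a narrow margin (limma adjusted p = 0.0469) and was not called without any 1 of the BMDM libraries, and its difference fell to 0.64 without BSM replicate 1.

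Hnrnph1, which binds G-rich sequences as Hnrnpf does, stood apart from these. It was at 115, 122 and 143 FPKM in BMDM and 141, 146 and 143 in BSM, and overlapped, whereas BMDM lay above BSM in Hnrnpd, Hnrnpa2b1 and Hnrnpu, the other abundant hnRNPs, on the deposited values. Its difference of -0.18 ± 0.20 was not called (limma adjusted p = 0.448), and after quantile normalization it was -0.87 (adjusted p = 0.00722). In ALEXA-Seq the BSM libraries all lay above the BMDM libraries. Hnrnpul1 (0.90), Hnrnpr (0.53), Hnrpdl (0.53), Hnrnph3 (0.42) and Hnrnpa3 (0.22) were not called. Of these Hnrpdl, a relative of Hnrnpd, did not overlap, at 26.7, 26.5 and 33.9 FPKM in BMDM against 17.0, 21.3 and 21.3 in BSM. Hnrnpul1 was at 16.4, 20.6 and 22.3 against 21.4, 7.81 and 5.75. Hnrnph3 was at 15.6, 13.97 and 16.8 against 8.04, 14.3 and 12.3, and Hnrnpa3 at 10.4, 15.1 and 13.5 against 12.7, 9.79 and 10.3. These 3 overlapped, Hnrnpul1 and Hnrnpa3 through BSM replicate 1 alone. Hnrnpa0 was listed at 0 in 5 libraries and at 0.0153 in the sixth, BMDM replicate 3.

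The ratio of FPKM of related genes within a library is not altered by multiplying that library by a factor, and log2 ratios, taken on FPKM + 1, are so only approximately. Of 18 pairs listed 15 had both genes at 3 FPKM or more in some library, and in 10 the groups did not overlap, against 59.1% of all pairs of the 6364 genes. With 3 libraries against 3 the smallest two-sided p of the exact permutation test is 0.1, which all 10 had (0.15 after adjustment over the 15 pairs), so no pair could pass 0.05. Hnrnph1 was 11.03, 5.20 and 11.3 times Hnrnpf in BMDM and 32.3, 59.7 and 64.4 times Hnrnpf in BSM, a difference in log2 ratio of -2.18. In ALEXA-Seq it was 1.206, 0.535 and 1.105 times Hnrnpf in BMDM and 3.51, 6.24 and 6.88 times in BSM, also without overlap. Of the Hnrnpf transcript 74.4% is matched by other genes, so the size of this ratio is uncertain. Against Hnrnph2, Hnrnph1 was 17.1, 15.6 and 14.0 times in BMDM and 97.1, 29.6 and 29.6 times in BSM. Among these G-rich binders the ratio thus stood more toward Hnrnph1 in BSM, and against Hnrnph3 it did so by less (-0.61, or -0.40 without BSM replicate 1, with overlap in ALEXA-Seq).

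Hnrnpd was 11.02, 14.5 and 10.3 times its relative Hnrpdl in BMDM and 7.15, 3.44 and 3.02 times in BSM (1.495). Sfrs4 exceeded Sfrs6 in all BMDM libraries (1.47, 1.93 and 1.40 times) and was the lower of them in all BSM libraries (0.789, 0.354 and 0.418 times), a difference of 1.53. In ALEXA-Seq Sfrs4 was the lower in every library, at 0.17, 0.66 and 0.249 times Sfrs6 in BMDM and 0.386, 0.0631 and 0.0648 times in BSM, and the groups overlapped, so no change of order was seen there. Hnrnpul1 was at 0.645, 0.593 and 0.650 times Hnrnpul2 in BMDM and at 6.52, 1.16 and 0.865 times in BSM, above 1 in only 2 of the 3 BSM libraries, and the difference of -1.44 fell to -0.65 without BSM replicate 1. Sfrs1 to Sfrs9 gave 1.24 (0.71 without BSM replicate 1), Hnrnpa1 to Hnrnpa2b1 0.68, Hnrnpa3 to Hnrnpa2b1 -0.67 and Sfrs3 to Sfrs7 -0.41.

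The 5 pairs that overlapped were Snrpa and Snrpb2, Hnrnpab and Hnrnpd, Hnrnpl and Hnrpll, Hnrnpu and Hnrnpul1, and Sfrs5 and Sfrs6. Among the 10 without overlap 8 had the same order without overlap in ALEXA-Seq. ALEXA-Seq used the same reads, and the share of all gene pairs that did so was not computed. The 8 therefore add no support.

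**Figure D3:**
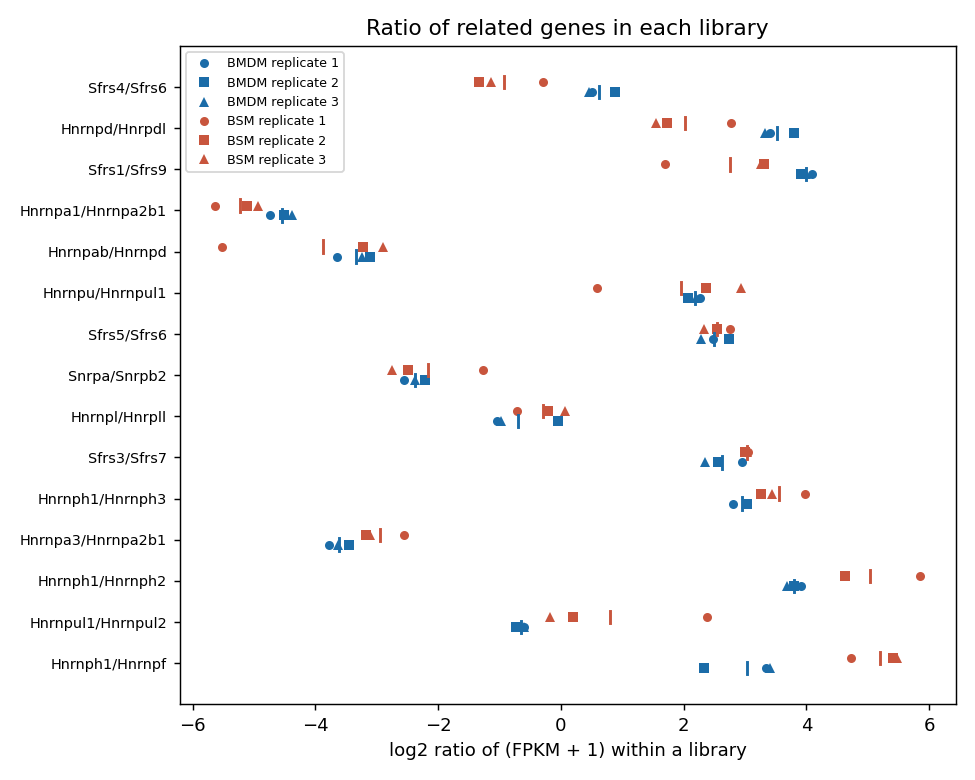
Log2 ratio of (FPKM + 1) of 15 pairs of related members within each library, with vertical bars at the group means (BMDM blue, BSM red). Hnrnph1/Hnrnpf, at the foot, is lower in all BMDM libraries than in any BSM library, and Sfrs4/Sfrs6, at the top, lies above 0 in BMDM and under 0 in BSM.

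ALEXA-Seq gave much the same order of differences from the same reads, and is a second quantification rather than a replication. With 49 members tested, limma called 26 (background 47.9%), of which 26 were higher in BMDM and none in BSM (backgrounds 37.1% and 10.9%), with a median of 0.96 against 0.84 for all genes. After quantile normalization it was 21 (background 43.8%), or 15 and 6 by direction (backgrounds 22.6% and 21.2%), and at the same sum 16 (background 43.4%), or 5 and 11 (backgrounds 13.2% and 30.2%). In 35 of the 49 the groups did not overlap (background 66.1%), with BMDM above in 32 (background 51.5%) and BSM above in 3 (background 14.6%), namely Hnrnph1, Sfrs18 and Snrpc. Of the 45 members tested by both methods, 23 were called higher in BMDM by both methods (background 38.9%) and none higher in BSM by both (background 9.31%). After quantile normalization 11 were higher in BMDM by both (background 21.0%) and 5 higher in BSM by both (background 17.9%). Those 5 were Hnrnph1, Sfrs5, Sfrs11, Sfrs12 and Sfrs18, named after their values were seen. The tables differed in level for genes largely matched by transcripts of other genes. ALEXA-Seq over FPKM had a median of 41.4 in the 8 members at least 50% covered by other genes' transcripts and 15.2 in the other 50 with a transcript. The 8 were Hnrnpa1, Hnrnpf, Hnrnpk, Sf3b4, Sfrs4, Sfrs5, Snrpa and Snrpf, whose FPKM are uncertain. The split was not clean. The highest ratio of all members was that of Snrpg (150.7), which is 29.9% covered, and Snrpd1 (62.9) and Snrpd2 (45.5) were also high, whereas Sfrs4 (2.87) and Snrpa (12.1) were under the median of the less covered members. The levels of these Sm genes thus depended on the table as well.

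**Figure D4:**
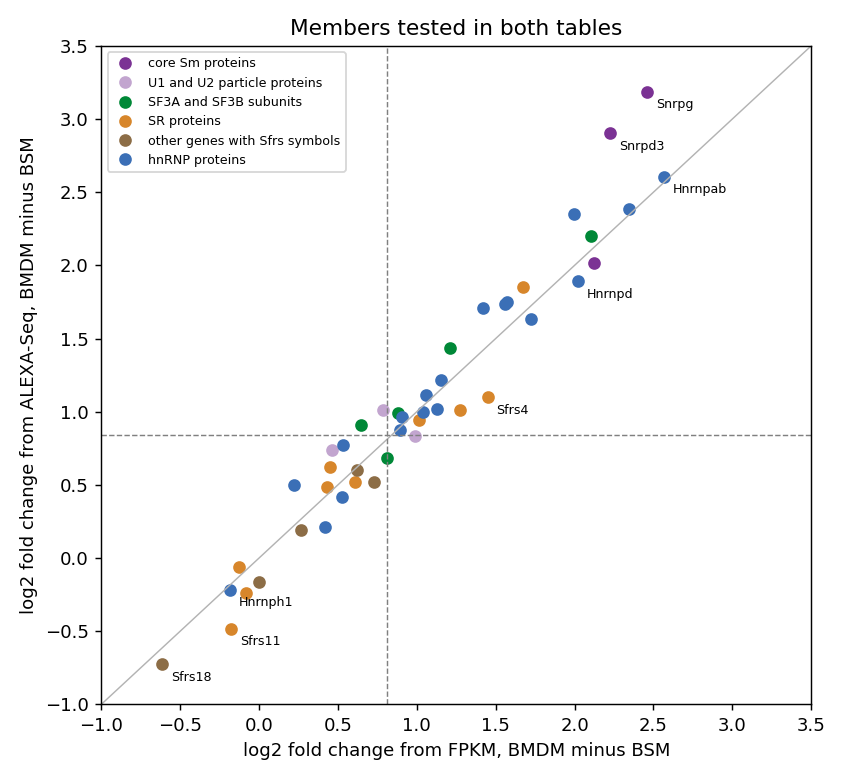
Log2 difference (BMDM minus BSM) of the 45 members tested in both tables, from FPKM (x axis) and ALEXA-Seq (y axis), coloured by class, with the line of equality and dashed medians of all tested genes. Snrpg, Snrpd3 and Hnrnpab lie at the upper right, above 2 in both, and Sfrs18, Hnrnph1 and Sfrs11 lie under 0 in both.

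BSM replicate 1, the library for which the study lists the lowest RNA concentration and integrity, stood apart from the other BSM libraries. Of the 47 tested members 12 (25.5%) were under 0.5 times the mean of BSM replicates 2 and 3, lowest in Sfrs14 (0.193), Sfrs1 (0.206), Snrpd3 (0.208) and Hnrnpab (0.227), and 4 (8.51%) were over 2 times. For all genes these shares were 38.5% and 13.6%. Without this library 32 members were called higher in BMDM (68.1%, background 50.2%), which included all 27 and in addition Hnrnpul1, Sf3a1, Sfrs15, Snrpa and Snrpa1. In the female libraries alone, a comparison added after the values were seen, 26 of the 27 were called, Sf3b1 was not, and with 6 further members 32 were higher in BMDM (background 52.4%). Sfrs18 was the 1 called higher in BSM (background 10.9%), at -0.90 (limma adjusted p = 0.0425). In the male libraries, 1 of each group and thus with no test, all 27 were higher in BMDM. This outcome was fixed beforehand, because the groups did not overlap in any of the 27, and it adds no support. Without BMDM replicate 2, which had the most granulocyte transcripts, 24 of the 27 were called (51.1% of the 47, background 36.3%).

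The other genes of the splicing pathway were taken from 12 lists. Of 177 genes found 133 were tested, 68 were higher in BMDM and 4 in BSM, with a median of 0.87. Over all 6364 genes 45.3% were called higher in BMDM and 9.22% in BSM, with a median of 0.81. After quantile normalization the lists gave 20 and 19 with a median of 0.13 (backgrounds 21.7% and 19.3%, median 0.02). Upper quartile scaling gave 17 and 17 (backgrounds 21.7% and 16.5%), and the same sum 4 and 23 (backgrounds 15.2% and 24.9%). Of the 68, 26 had reached 3 FPKM in BMDM alone, and of the 4, 3 had reached it in BSM alone, so that these calls follow in part from the minimum. Without BMDM replicate 3 the calls fell from 72 to 36. In what follows, list counts are those without further scaling unless another scaling is named. The backgrounds of this paragraph apply to them.

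The Lsm genes, whose Sm-like proteins ring U6, had the highest median of the lists, 1.65. All 4 tested were higher in BMDM, of which Lsm2 and Lsm3 had reached the minimum in BMDM alone, and 2, 2 and 1 were after quantile, upper quartile and same-sum scaling. Lsm3 was at 7.57, 15.8 and 11.02 FPKM in BMDM against 0, 1.91 and 2.48 in BSM (2.47, limma adjusted p = 0.0044). In the list for assembly of the Sm core 2 of 5 tested were higher in BMDM, and these were Clns1a (2.08), which carries Sm proteins to the assembly machinery, and Strap (1.5). The count was 2, 1 and 0 under the 3 scalings and 4 without BSM replicate 1.

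Of the Prp19 complex and catalytic factors 13 of 16 tested were higher in BMDM, 7 of them having reached the minimum in BMDM alone, led by Isy1 (2.08), Syf2 (1.93) and Cdc40 (1.65). Of the tri-snRNP proteins 9 of 13 were, 4 of them in that way, led by Eftud2 (1.88), Snrnp40 (1.76) and Prpf3 (1.18). Quantile normalization and upper quartile scaling each left 3 and 2 called, the same sum left none, and leaving out BMDM replicate 3 left 6 and 2 (also 2 of the tri-snRNP proteins without BMDM replicate 2). The U2-associated list gave 6 of 10, with Phf5a (1.76), Rbm17 (1.49) and Ddx46 (1.41) first, but 2 after quantile normalization, none after upper quartile scaling and 1, higher in BSM, at the same sum. The exon junction list gave 6 of 14, with Ddx39 (2.61), Upf3a (1.75) and Magoh (1.59) first, 4 after quantile and after upper quartile scaling, and 1 in each direction at the same sum.

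The hnRNP-related list gave 13 of 21, with Khsrp (1.95), Nono (1.84) and Pcbp2 (1.70) first, and 6 without BMDM replicate 3. After quantile normalization 3 were higher in BMDM and 2 in BSM, after upper quartile scaling 2 and 2, and at the same sum none and 3. U1-associated genes gave 3 of 10 and a median of 0.33, among them Luc7l2 (0.80) and Luc7l3 (0.80). In that list none was called without BMDM replicate 3 or BSM replicate 2, 1 without BMDM replicate 1 or BSM replicate 3, and 7 without BSM replicate 1. After each of the 3 scalings none was higher in BMDM and 4 were higher in BSM. The minor spliceosome list gave 2 of 6 (Zcrb1 1.32 and Snrnp35 0.88), 1 without BMDM replicate 2 or BSM replicate 3 and none without BMDM replicate 3. None of it was higher in BMDM after the scalings, and 2, 0 and 1 were higher in BSM after quantile, upper quartile and same-sum scaling. Of the SR-related list Tra2b (0.81) was the 1 of 9 called, none was without BMDM replicate 3, BSM replicate 2 or BSM replicate 3, and 2 were without BSM replicate 1. After the 3 scalings none was higher in BMDM and 2, 3 and 4 were higher in BSM.

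Genes called higher in BSM without further scaling were found in 2 lists. Among kinases that phosphorylate SR proteins, Srpk3 was at 0.151, 0.1199 and 0.0751 FPKM in BMDM and 3.13, 1.64 and 1.07 in BSM (-1.34, limma adjusted p = 0.0148), and it reached the minimum through BSM replicate 1 alone. Srpk1 was higher in BMDM (1.00). Each of the 3 scalings called 3 kinases, all of them higher in BSM, and 4 were called without BSM replicate 1. Among sequence-specific regulators 8 of 17 were higher in BMDM and 3 in BSM, 11 in all and 6 or 7 without BMDM replicate 3 or 2. By direction, BMDM then BSM, quantile normalization gave 2 and 6, upper quartile scaling 3 and 5, and the same sum 2 and 6.

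The 3 regulators higher in BSM were Nova1, at 0, 0 and 0.0300 FPKM in BMDM against 26.9, 3.44 and 6.17 in BSM (-3.25, limma adjusted p = 0.00331), A2bp1 (Rbfox1), at 0.0267, 0 and 0 against 4.60, 1.53 and 1.78 (-1.75, adjusted p = 0.00637), and Qk, at 61.3, 57.8 and 70.6 against 128, 150 and 142 (-1.13, adjusted p = 0.00265). Nova1 and A2bp1 reached the minimum in BSM alone, A2bp1 through BSM replicate 1 only. Both are best known from neurons. Of the 8 listed neuron markers 5 were found, and they summed to at most 0.328 FPKM in BSM. The source of the Nova1 and A2bp1 transcripts was not tested. The largest changes toward BMDM among the regulators were Mbnl3 (2.31) and Rod1 (Ptbp3, 2.17).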

How the data were processed

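The RNA-Seq libraries were aligned by the authors, whose submitters' processing notes list CASAVA 1.7.0, Bowtie 0.12.7, TopHat 1.3.1 and Cufflinks 1.0.3 with the mouse build mm9. The authors deposited FPKM per gene from Cufflinks, scaled for exon length and mapped reads, and a linear expression signal per gene from ALEXA-Seq, whose normalization is not given in the sources used here. Ribosomal reads had been removed. Neither table holds read numbers, so no count test was used and the depth per value is unknown.

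Groups came from the sample labels. Limma 3.58.1 (R 4.3.3) was fitted to log2(value + 1) (empirical Bayes with a mean-variance trend, Benjamini-Hochberg adjustment, threshold 0.05), for 6364 genes that reached 3 FPKM in some library and for the same number of genes with the highest ALEXA-Seq values. ALEXA-Seq genes were matched by symbol. With 3 libraries in each group a single value cannot go below an exact two-sided p of 0.1. The fit was first tested on simulated data. Ratios of related genes used log2 of (FPKM + 1) and an exact permutation test over libraries (scipy 1.17.1). Matches to other genes were blastn 2.17.0 matches of at least 100 bases at 95% identity to their transcripts in GENCODE M21. The position of the matched gene was not checked, so it can overlap the member. Promoter letters are those of the RefSeq table (GRCm38.p6), a build other than that of the gene positions. No promoter was given there for Hnrnpul2, Hnrpll, Sf3b4, Sf3b5, Sfrs18, Snrpb, Snrpd1 and Snrpn. Python 3.11.15 with numpy 2.4.6, pandas 2.3.3 and matplotlib 3.10.9 was used for tables and plots.

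The members and lists were chosen with earlier results of these data known. Library values are given for the 8 members with the largest called difference in each direction, the 5 most abundant in each group and the tested members of the related pairs. Of each list of other splicing genes up to 3 called genes with the largest difference are named, most by that difference alone; other members were named freely. A gene that this rule names among the other splicing genes is not reported here. Alternatives were another pseudocount, minimum, scaling, variance model, weights or quantification, the replicate number as a block, and leaving out each library. Exon array data were not used here.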

Additional observations from a re-analysis of the deposited data

How the results depend on the processing

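The scaling between libraries decided most calls. Quantile normalization gave 17 differentially expressed members (12 higher in BMDM, 5 in BSM) and 39 genes of the other splicing lists, upper quartile scaling 16 (11 and 5) and 34, and scaling to the same sum 17 (5 and 12) and 27, with 16 in ALEXA-Seq, against 27, 72 and 26 without further scaling. Fitting without the trend, with an FPKM minimum of 1 or with 0.1 as pseudocount kept 26 of the 27 calls, and no minimum kept 22. Library quality weights gave 36 members higher in BMDM and 1 in BSM (Sfrs18), and the female libraries alone 32 and 1 (backgrounds 52.4% and 10.9%). For the weights, the replicate block and most fits with 1 library left out, the share of all genes called was not computed. A rise or fall of those member counts is therefore not a result about the members. Leaving out each library in turn gave 22 to 32 members, 22 to 32 higher in BMDM, 0 higher in BSM, 19 to 36 in ALEXA-Seq, and 36 to 89 genes of the other lists, lowest without BMDM replicate 3. Deviations of same-numbered libraries correlated weakly (-0.019, -0.008 and 0.134), which over 3 libraries cannot decide whether the numbers pair libraries. The number also carries sex, as replicate 1 was male and replicates 2 and 3 female in both groups. The replicate block gave 25 members (24 in ALEXA-Seq).

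Differences that changed sign were as follows. Quantile normalization gave Hnrnpa3 -0.53, Hnrnph3 -0.34, Hnrnpr -0.20, Hnrpdl -0.26, Sf3a1 -0.08, Sfrs12ip1 -0.085, Sfrs13a -0.31, Sfrs14 -0.91, Sfrs15 -0.024, Sfrs2ip -0.48, Sfrs3 -0.084, Sfrs9 -0.38 and Snrpa1 -0.20. Upper quartile scaling gave Hnrnpa3 -0.57, Hnrnph3 -0.37, Hnrnpr -0.19, Hnrpdl -0.30, Sf3b1 -0.021, Sfrs12ip1 -0.074, Sfrs13a -0.36, Sfrs14 -0.56, Sfrs15 -0.10, Sfrs2ip -0.52, Sfrs3 -0.24, Sfrs9 -0.19 and Snrpa1 -0.26. The same sum gave Hnrnpa2b1 -0.42, Hnrnpa3 -1.0, Hnrnph2 -0.029, Hnrnph3 -0.81, Hnrnpk -0.14, Hnrnpr -0.58, Hnrnpu -0.17, Hnrnpul1 -0.32, Hnrpdl -0.74, Sf3a1 -0.32, Sf3a3 -0.33, Sf3b1 -0.47, Sfrs12ip1 -0.51, Sfrs13a -0.80, Sfrs14 -0.88, Sfrs15 -0.50, Sfrs2 -0.039, Sfrs2ip -0.96, Sfrs3 -0.70, Sfrs7 -0.21, Sfrs9 -0.53, Snrpa -0.23, Snrpa1 -0.65 and Snrpb2 -0.27. Sfrs14 was -0.48 with library weights and -0.40 in the female libraries. With 1 library left out at a time Sfrs14 ranged from -0.44 (without BSM replicate 1) to 0.49, Sfrs6 from -0.40 to 0.083, Sfrs12 from -0.096 to 0.075 and Sfrs5 from -0.34 to 0.019. Among ratios, ALEXA-Seq gave 0.18 for Sfrs5/Sfrs6 and 0.18 for Snrpa/Snrpb2. Leaving out 1 library gave -0.27 to 1.04 for Hnrnpab/Hnrnpd, -0.46 to 0.71 for Hnrnpu/Hnrnpul1, -0.50 to 0.24 for Snrpa/Snrpb2 and -0.16 to 0.068 for Sfrs5/Sfrs6, with BSM replicate 1 the library that turned the first 3. The causes were not tested beyond the libraries and scalings named. The study lists mapped reads for each library, but the read number behind each FPKM value is unknown.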
